A study of Arabidopsis thaliana with 8 samples.

Results

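Described here are 14 transcripts of Arabidopsis thaliana seed, out of 22746 probe sets on the array, that had a very low signal in dry seed, a high signal after 24 h in water, and a signal in 30 µM abscisic acid (ABA) that stayed above 0.67 times that in water. They were chosen on these same measurements: the mean signal of the dry arrays had to be 10 or less, that of the water arrays 250 or more, and that of the 30 µM ABA arrays more than 0.67 times water. Only probe sets of a single gene whose symbol is a locus code were eligible, which were 11933. The 14 probe sets stand for 14 different genes, all with probe set names that end in plain _at. No other probe set of a single gene names one of them, and probe sets that name several genes were not searched. By their locus codes 5 lie on chromosome 1, 4 on chromosome 3, 2 on chromosome 4 and 3 on chromosome 5.

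RNA from whole seed of the accession Col-0 was hybridised to 8 single-colour arrays after biotin labelling. Each of the 4 groups had 2 arrays. One group was dry, untreated seed, and the others had taken up water alone, 3 µM ABA or 30 µM ABA over 24 h. The arrays of a group are called A and B after their titles. Those in 3 µM ABA bear the title numbers 3 and 5, whereas the arrays of every other group share a single number. No label ties the arrays of a group to separate seed batches, so the p-values rest on the spread among these arrays alone, and that spread may be technical. In whole seed, more cells of a type and more RNA per cell cannot be told apart.

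When a dry seed takes up water, metabolism restarts, messenger RNAs stored during maturation are broken down, and a programme of new transcription begins that prepares the embryo to grow and the surrounding tissues to give way. Enzymes that remodel the cell wall, and proteases that process or recycle proteins, are well-known products of that programme. ABA accumulates during seed maturation, maintains dormancy and holds back germination when supplied from outside, so the study's design asks which of the changes of imbibition take place in its presence.

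The seed label was checked first. The 9 storage protein, oleosin and LEA protein genes listed as marks of seed identity all had a named probe set, and their summed signal was 13735 to 20275 in dry seed, 1253 to 1505 in water, 1724 to 2635 in 3 µM ABA and 3062 to 3938 in 30 µM ABA. Markers of other tissues were mostly unnamed on the array. The 2 of 6 root markers that were named summed to 10.2 to 19.4 over all arrays, and the 1 of 2 pollen markers lay at 0.566 to 17.6. The 2 of 4 named leaf and guard cell markers summed to 43.5 to 79.4 on the imbibed arrays, against 1.81 and 5.29 on the dry arrays. Of 3 endosperm genes only EXPA9, an expansin, was named, at 1015 to 1537 on the imbibed arrays, against 8.14 and 10.4 on the dry arrays. The leaf and endosperm lists thus moved together with the 14 transcripts, and their part in the result was not tested. No listed marker was at 0. The 2% trimmed mean was about 100 on each array. Spike-in controls had geometric means of 128 to 247 on the imbibed arrays, against 338.9 and 363 on the dry arrays. GAPDH, read from its 3′ and 5′ ends to judge RNA quality, gave ratios of 0.884 to 1.31 on the imbibed arrays, against 1.11 and 0.892 on the dry arrays. In this pair of probe sets the ABA arrays had 0.884 to 0.974, against 1.31 and 1.05 on the water arrays. A second pair of GAPDH probe sets gave 0.371 to 0.927 on the imbibed arrays, against 1.81 and 1.69 on the dry arrays. That ratio, like the spike-in level, differs between dry and imbibed seed as the 14 transcripts do, and its part in the result was not tested.

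The 14 transcripts fall into proteases, cell wall enzymes and their inhibitors, and a mixed remainder. Of these genes 13 have no descriptive name in the tables used, so the families given here are background knowledge of each locus. Signals are quoted as deposited, on a linear scale, for replicates A and B in turn. The levels of different probe sets are not comparable with each other.

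Proteases made up 4 of the 14. AT5G45650, a subtilase (a serine protease of the subtilisin type), had signals of 2.61 and 3.48 in dry seed, 895 and 723 in water, 878 and 533 at 3 µM ABA, and 618 and 548 at 30 µM. AT5G59130, also of the subtilase family, had 12.1 and 3.55 in dry seed, 333 and 324 in water, 386 and 195 at 3 µM ABA, and 241 and 267 at 30 µM. For both subtilases the arrays in 30 µM ABA lay below both water arrays, and the arrays in 3 µM ABA lay far apart. AT3G61820, of the aspartyl protease family, had 10.8 and 0.474 in dry seed, 456 and 346 in water, 548 and 344 at 3 µM ABA, and 535 and 365 at 30 µM. AT1G66180, of the same family, had 3.55 and 6.58 in dry seed, 291 and 329 in water, 338 and 256 at 3 µM ABA, and 269.9 and 242 at 30 µM. The imbibed arrays of AT3G61820 overlapped in every pair of groups, with replicate A above replicate B in each of them, and its dry arrays differed by 22.9 times. AT1G66180 had overlapping arrays in water and 3 µM ABA, but its 30 µM arrays were both below both water arrays.

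Cell wall genes made up 3. AT3G05910, a pectin acetylesterase, which removes acetyl groups from pectin, had 3.58 and 1.45 in dry seed, 605 and 796 in water, 589 and 644 at 3 µM ABA, and 577 and 631 at 30 µM. AT1G78060, of the beta-xylosidase type of glycosyl hydrolase, had 8.06 and 6.83 in dry seed, 544 and 546 in water, 579 and 447 at 3 µM ABA, and 498 and 519 at 30 µM. AT4G25260, of the family of invertase and pectin methylesterase inhibitors, had 6.87 and 8.33 in dry seed, 309 and 199.8 in water, 276 and 238 at 3 µM ABA, and 332 and 246 at 30 µM. The inhibitor was one of the pair of transcripts, with AT3G61820, whose mean in 30 µM ABA was above that in water, and its imbibed groups overlapped. AT1G78060 had the smallest gap between its 2 water arrays among the 14, and both 30 µM arrays were below them, by a ratio of means of 0.933.

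The remaining 7 have varied roles. AT3G48140, a B12D family protein, had 9.41 and 5.06 in dry seed, 1860.0 and 1242 in water, 1291 and 1302 at 3 µM ABA, and 1222 and 1166 at 30 µM. AT1G60160, of the potassium transporter family, had 1.36 and 8.78 in dry seed, 608 and 524 in water, 564 and 477 at 3 µM ABA, and 446 and 457 at 30 µM. AT4G26790, of the GDSL lipase and esterase family, had 0.911 and 1.03 in dry seed, 406 and 459.9 in water, 456 and 220.01 at 3 µM ABA, and 297 and 296 at 30 µM. Of the 3, each had both 30 µM arrays below both water arrays, while the 3 µM arrays overlapped with water for all of them. For AT4G26790 the 3 µM arrays differed by 2.07 times, the widest gap of any of the 14 in an imbibed group.

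AT5G26280, whose product has a TRAF-like domain, had 0.601 and 3.20 in dry seed, 328 and 400.04 in water, 322 and 308 at 3 µM ABA, and 237 and 268 at 30 µM. AT1G53070, of the legume lectin family, had 1.07 and 3.24 in dry seed, 338 and 301 in water, 358 and 229.8 at 3 µM ABA, and 323 and 217 at 30 µM. AT3G10040, which the gene table names HRA1 (HYPOXIA RESPONSE ATTENUATOR1) and which encodes a trihelix transcription factor that dampens the response to low oxygen, had 8.22 and 3.34 in dry seed, 239.7 and 326 in water, 272 and 258 at 3 µM ABA, and 291 and 182 at 30 µM. Among these, AT5G26280 was below water on both arrays of both ABA groups, whereas the lectin and HRA1 had overlapping arrays throughout imbibition. AT1G73120, for which no role is given, had 11.1 and 7.001 in dry seed, 1023 and 1049 in water, 500.4 and 767 at 3 µM ABA, and 627 and 804 at 30 µM. It was the exception of the 14, the only one with a mean in 3 µM ABA under 0.67 times water, and both of its arrays at either dose were below both water arrays.

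**Figure D1:**
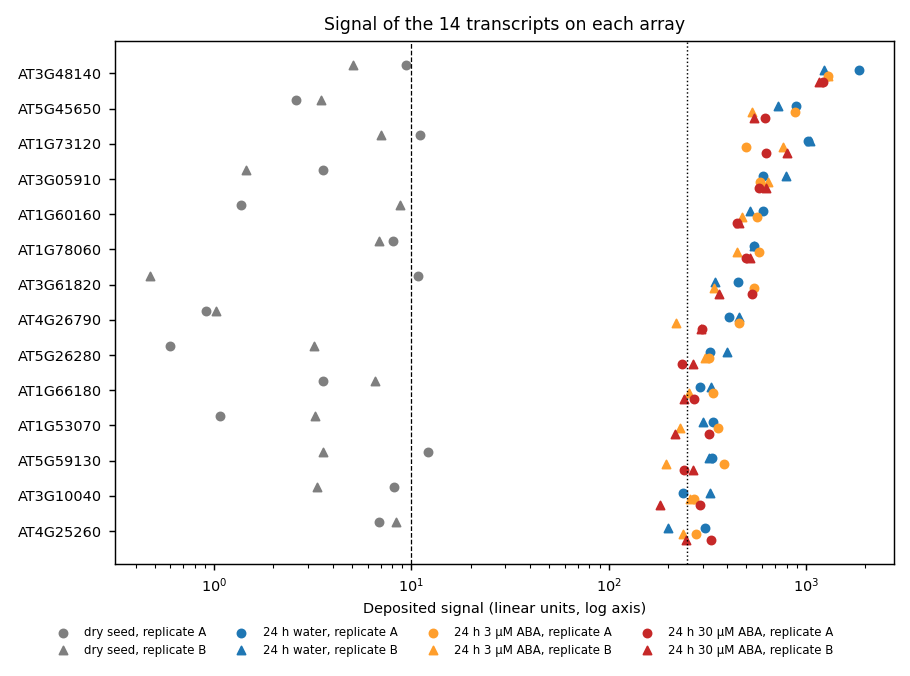
Deposited signal (linear units, log axis) of each of the 14 transcripts on the 8 arrays; colour marks the group, circles replicate A and triangles replicate B, the dashed line a signal of 10 and the dotted line 250. All imbibed arrays lie far to the right of both dry arrays for all 14, and the 3 imbibed groups lie close together.

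Over the 14, group means ran from 0.969 to 9.05 in dry seed, from 254 to 1551 in water, from 257 to 1296 in 3 µM ABA and from 237 to 1194 in 30 µM ABA. The means of water were 33.5 to 447 times those of dry seed, and both water arrays were above both dry arrays for all 14 (45.1% of all probe sets tested), which the choice of the transcripts fixes. Both dry arrays were at 10 or less for 11 of the 14, and both water arrays at 250 or more for 12. No detection calls were used, so a dry signal of this size does not show that a transcript was absent. Dry arrays of one transcript could differ several times at such levels.

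The 3 µM ABA arrays played no part in choosing the transcripts, so the high signal after imbibition can be looked up on arrays not used for the choice. All 14 were high in 3 µM ABA, on single arrays from 195 to 1302, against 0.474 to 12.1 on the dry arrays. The groups overlapped for none of the 14, where both 3 µM arrays were above both dry arrays for 47.6% of all probe sets tested. All 14 were called higher in 3 µM ABA than in dry seed by limma (log2 differences 4.49 to 6.88, adjusted p = 1.2e-08 to 2.33e-06), where 37.9% of the 15922 probe sets tested were called higher. The dry arrays had been chosen for a low signal and the water arrays for a high one. Over all probe sets tested, 0.00% were called between 3 µM ABA and water. The count of 14 was thus largely set by the choice and is no separate support. All 14 passed the filter on low values, as probe sets with such high imbibed signals had to. The differences are on the scale of log2(signal + 3.99), which understates the change of transcripts that start this low.

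The sizes of these differences depend on the pseudocount, since the dry signals are low and not shown to be above background, so no order among the 14 is read from them. AT3G48140 averaged 1296 ± 7.57 in 3 µM ABA and 7.24 ± 3.07 in dry seed (SD, n = 2 each), a log2 difference of 6.88 ± 0.23 (SE). AT5G45650 differed by 6.61 ± 0.23 and AT3G05910 by 6.59 ± 0.20. With a pseudocount of 1 these 3 values were 7.35, 7.41 and 7.53. The lipase-type gene AT4G26790, with the lowest dry mean, differed by 6.02 ± 0.28, or by 7.34 with a pseudocount of 1. Smaller differences on this scale were those of AT4G25260 at 4.49 ± 0.23, AT5G59130 at 4.66 ± 0.36 and HRA1 (AT3G10040) at 4.83 ± 0.29. AT3G61820 had the widest error, 5.75 ± 0.46. The rest were the potassium transporter AT1G60160 at 5.98 ± 0.32, the TRAF-like AT5G26280 at 5.79 ± 0.22, AT1G73120 at 5.60 ± 0.24, the lectin AT1G53070 at 5.59 ± 0.27, the beta-xylosidase AT1G78060 at 5.49 ± 0.17 and the aspartyl protease AT1G66180 at 5.06 ± 0.21. The median over the 14 was 5.67, beside a median of 0.24 over all probe sets tested.

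**Figure D2:**
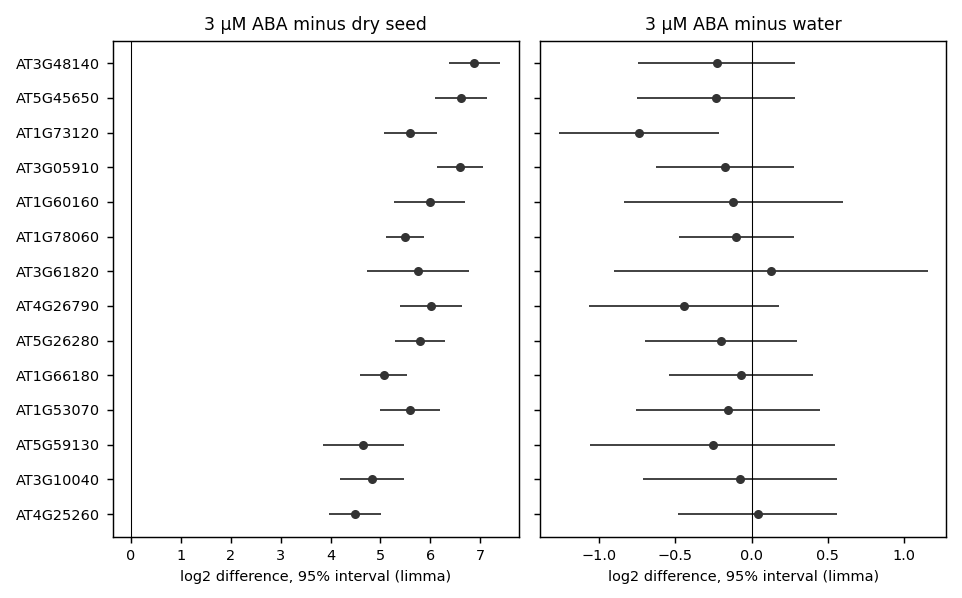
Log2 difference of 3 µM ABA minus dry seed (left) and 3 µM ABA minus water (right) for each of the 14 transcripts, with the 95% interval from limma. All 14 intervals on the left lie far above 0, between bounds that start at 3.86, and on the right 13 of 14 intervals hold 0.

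Against water, the other group that shared in the choice, the 3 µM ABA arrays gave no call. AT1G73120 averaged 634 ± 189 in 3 µM ABA and 1036 ± 18.6 in water, a log2 difference of -0.74 ± 0.24 (SE, limma adjusted p = 0.999). AT4G26790 averaged 338 ± 167 in 3 µM ABA and 433 ± 38.1 in water, at -0.44 ± 0.28, but it lay at 0.077 without 3 µM replicate B and at -0.96 without replicate A. The subtilases AT5G59130 and AT5G45650 lay at -0.25 ± 0.36 and -0.23 ± 0.23, and the B12D gene AT3G48140 at -0.23 ± 0.23. Nearer to water were AT5G26280 at -0.20 ± 0.22, the pectin acetylesterase AT3G05910 at -0.17 ± 0.20, the lectin AT1G53070 at -0.15 ± 0.27 and the potassium transporter AT1G60160 at -0.12 ± 0.32. The beta-xylosidase AT1G78060 lay at -0.10 ± 0.17, HRA1 (AT3G10040) at -0.08 ± 0.29 and AT1G66180 at -0.07 ± 0.21. Of these, AT5G59130, AT5G45650, AT3G48140, AT5G26280, AT3G05910, AT1G53070, AT1G60160, AT1G78060, HRA1 and AT1G66180 turned positive, at up to 0.20, after scaling to the spike-in controls. All of these but AT5G26280 and AT1G60160 also turned positive with 1 water or 3 µM array left out, at up to 0.23. AT3G61820 and AT4G25260 were above water, at 0.13 ± 0.46 and 0.04 ± 0.23, but turned negative without water replicate B (-0.07 and -0.27) or without 3 µM replicate A (-0.21 and -0.06), and AT4G25260 also with each array set to a common median (-0.013).

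Limma called 0 of the 14 in 3 µM ABA against water at adjusted p = 0.999 for each, and 1 had an unadjusted p under 0.05, AT1G73120. Over all probe sets 0.00% were called and 3.99% had an unadjusted p under 0.05. In 12 of 14 the mean of 3 µM ABA was below water, against 45.0% of all probe sets tested, and in 2 of 14 both arrays were below both water arrays, against 11.7%. The water arrays took part in the choice of the transcripts, so these counts are partly fixed by it. The ratio of means ran from 0.612 to 1.11 with a median of 0.902.

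A missed threshold does not show that these transcripts do not respond. The 95% intervals of the difference from water spanned at most -1.26 to 1.16 on the log2 scale, and 13 of 14 held 0. Only for AT1G66180, AT1G78060 and AT4G25260 did the interval lie wholly above -0.58, the log2 value of the ratio of 0.67, so for the other 11 a fall of that size at 3 µM lies within the error. The median difference was -0.16 with the deposited scaling and 0.11 after scaling to the spike-in controls, which put the median over all probe sets tested at 0.28 in place of 0.025. Without 3 µM replicate B it was 0.083.

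The spread between the 3 µM arrays bears on these ratios. Replicate A was above replicate B for 11 of the 14, against 48.6% of all probe sets tested, and relative to the water mean the median was 1.06 for replicate A and 0.833 for replicate B. For 6 of the 14, among them AT4G26790, AT5G59130 and AT5G45650, these arrays differed by more than 1.5 times. In water and in 30 µM ABA, 1 transcript each did so, AT4G25260 and HRA1. The arrays of the 3 µM group carry different title numbers, and whether that goes with the spread was not tested.

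In 30 µM ABA the ratio of means to water ran from 0.684 to 1.13 with a median of 0.812. These arrays chose the transcripts, so the ratios describe the set and test nothing. The means were below water for 12 of 14, where 47.9% of all probe sets tested were, and both arrays were below both water arrays for 9 of 14, where 19.2% were. The water arrays were chosen for a high signal, which tends to lower these ratios, so both counts are partly fixed by the choice. They therefore cannot settle whether the name ABA-insensitive is apt. Most of the 14 were moderately below water in 30 µM ABA, and the rule sets only how far below they may be. AT5G26280 averaged 0.694 times water, AT1G73120 0.691 and AT4G26790 0.684, the 3 nearest to the limit. At the other end were AT1G78060 at 0.933, AT3G61820 at 1.12 and AT4G25260 at 1.13.

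**Figure D3:**
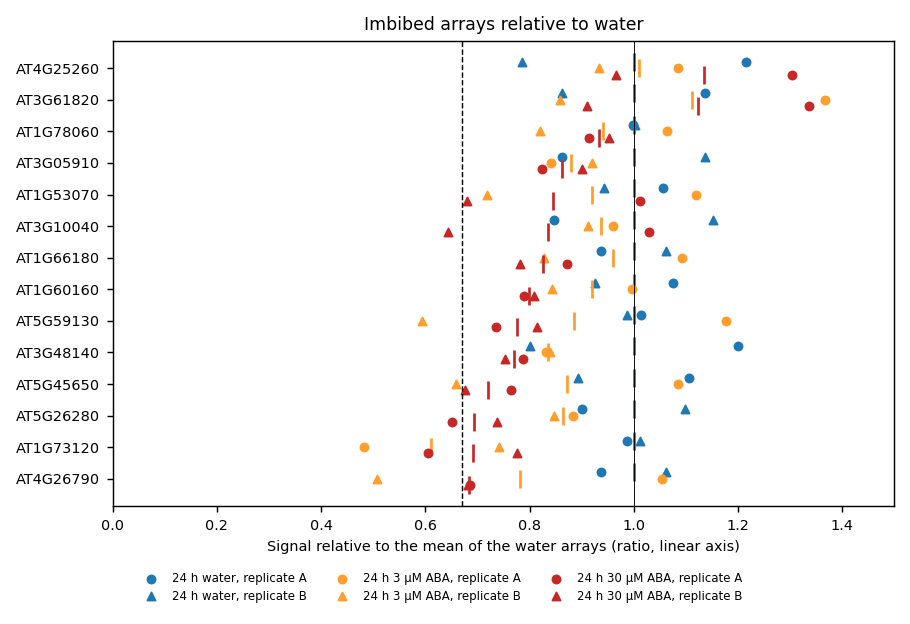
Signal on each imbibed array relative to the mean of the water arrays (ratio, linear axis) for the 14 transcripts, ordered by the mean in 30 µM ABA; circles are replicate A, triangles replicate B, ticks the group means, and the dashed line a ratio of 0.67. Means in 30 µM ABA run from 0.684 to 1.13, and single 3 µM arrays from 0.483 to 1.37.

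The doses were also compared directly. The 30 µM arrays took part in the choice of the transcripts, so the outcome is partly fixed by it. Limma called 0 of the 14 between 30 µM and 3 µM ABA (adjusted p = 0.9996 for each, differences -0.32 to 0.20), and 0 had an unadjusted p under 0.05, beside 0.00% called and 3.22% with an unadjusted p under 0.05 over all probe sets. The mean in 30 µM was below that in 3 µM for 11 of 14, against 54.5% of all, and both arrays were below for 3 of 14, against 17.9%. It was above it for AT3G61820, AT4G25260 and AT1G73120. The widest bounds of the intervals were -1.003 and 1.05. The median difference was -0.11, or 0.06 without 3 µM replicate A, and -0.58 after scaling to the spike-in controls, which put the median over all probe sets tested at -0.47.

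Transcripts just across the limit show how the set is bounded. A further 8 locus-code probe sets met the dry and water thresholds but had a ratio of 0.67 or less in 30 µM ABA. AT5G20400, of the family of oxygenases that use 2-oxoglutarate and iron, stood at 0.666, AT2G34020, an EF-hand calcium-binding protein, at 0.644 and AT5G45670, of the GDSL lipase family like AT4G26790, at 0.599. The nearest ratios on either side of the limit, 0.684 and 0.666, thus lie close together. The lowest were AT4G01700, of the chitinase family, at 0.316, and AT5G01870, a lipid transfer protein, at 0.331.

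In 3 µM ABA, not used for the choice, the 14 had ratios to water of 0.612 to 1.11 with a median of 0.902, and the 8 had 0.426 to 0.798 with a median of 0.709. Of the 14, 13 were above 0.67 in 3 µM ABA, and of the 8, 5 were. The share of all probe sets above that ratio was not counted, so no trait of the 14 is read from these counts. Both sets of ratios share the water arrays that defined the sets, so a high water signal lowers both doses together, and no test is given. All 8 were called higher in 3 µM ABA than in dry seed by limma, as all 14 were, against the same 37.9% of probe sets. As both sets were chosen for a low dry and a high water signal, that count is largely set by the choice.

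**Figure D4:**
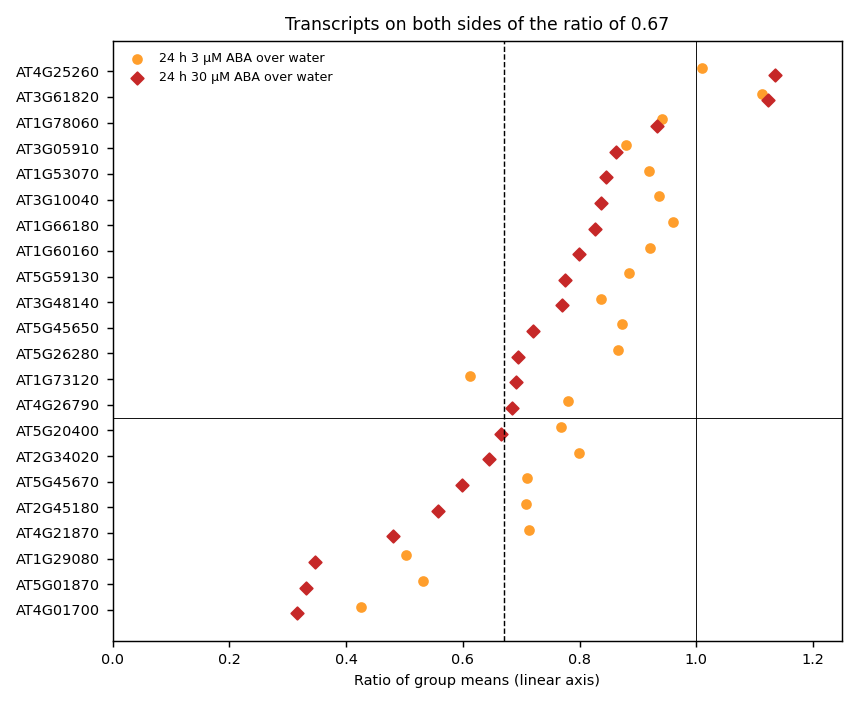
Ratio of the group mean in 3 µM ABA (circles) and in 30 µM ABA (diamonds) to that in water, for the 14 transcripts above the horizontal line and the 8 with a ratio of 0.67 or less below it; the dashed line marks 0.67. The 30 µM ratios run from 0.316 to 1.13 and lie close together around the limit, with 0.684 and 0.666 on either side of it.

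The other thresholds had near neighbours too. AT1G73120, at 9.05 in dry seed, was nearest inside the limit of 10, followed by AT5G59130 at 7.84 and AT4G25260 at 7.60. Just outside were AT2G24280, AT1G55360 and AT1G28580, at 10.1, 11.3 and 11.9. In water, AT4G25260 at 254, HRA1 at 283 and AT1G66180 at 309.9 were nearest inside the limit of 250, and AT3G57780, AT1G09390 and AT4G30620 nearest outside, at 243, 241 and 225.

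The 14 belong to a wider set. Among locus-code probe sets 14 of 22, 63.6%, of those that met the dry and water thresholds also met the ratio. With no condition on names, 99 probe sets met the dry and water thresholds and 75 of them, 75.8%, the ratio. Of the 75, 45 have no gene named in the platform table, 13 carry another symbol and 3 name several genes.

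The genes next to the 14 on the chromosome were picked by position and not by signal, though they are compared with the same dry arrays. Within 2 protein-coding genes on either side in the RefSeq gene order, 29 probe sets named a single neighbour, for 13 of the 14 genes, and 21 passed the filter on low values. Of these, 8 were called higher and 7 lower in 3 µM ABA than in dry seed by limma, which is 38.1% and 33.3%, against 37.9% and 26.7% of all probe sets tested. Both shares are near those of all probe sets. The count higher was 5 without dry replicate A or with a common median, and 14 after spike-in scaling. The neighbour with a change like that of the 14 was AT5G45670, 2 places from the subtilase gene AT5G45650. It averaged 409 ± 53.0 in 3 µM ABA and 2.29 ± 2.64 in dry seed. AT5G45670 is the GDSL lipase gene described above that itself met the dry and water thresholds, so its rise is no separate result.

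Several neighbours belong to the same family as the gene beside them, and their own signals stayed low. AT5G45640, the subtilase gene next to AT5G45650, averaged 1.40 in dry seed, 10.9 in water, 9.95 in 3 µM ABA and 7.12 in 30 µM ABA. SBT4.13, the subtilase gene next to AT5G59130, averaged 1.17, 6.03, 9.69 and 3.06 in the same order. AT4G25250, which codes for an inhibitor of the same family as AT4G25260, averaged 4.49, 2.57, 1.62 and 3.70. These 3 did not pass the filter on low values and were not tested. The legume lectin genes AT1G53060 and AT1G53080 flank AT1G53070. AT1G53060 averaged 20.1 ± 0.778 in 3 µM ABA and 13.3 ± 0.635 in dry seed and was not called (limma adjusted p = 0.15), and AT1G53080, at 1.44 in 3 µM ABA and 1.20 in dry seed, was not tested.

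In the other direction, AT1G78070 beside the beta-xylosidase gene AT1G78060 fell to 73.7 ± 17.6 in 3 µM ABA, against 1433 ± 42.7 in dry seed (limma adjusted p = 2.54e-07). AT3G10020, 2 places from HRA1, fell to 136 ± 90.5 in 3 µM ABA, against 1795 ± 204 in dry seed (adjusted p = 2.12e-05). In these 2 cases genes 1 or 2 places apart on the chromosome went opposite ways during the same 24 h. The share of neighbours called lower, 33.3%, was near the 26.7% of all probe sets tested, so this is not read as a trait of neighbours.

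**Figure D5:**
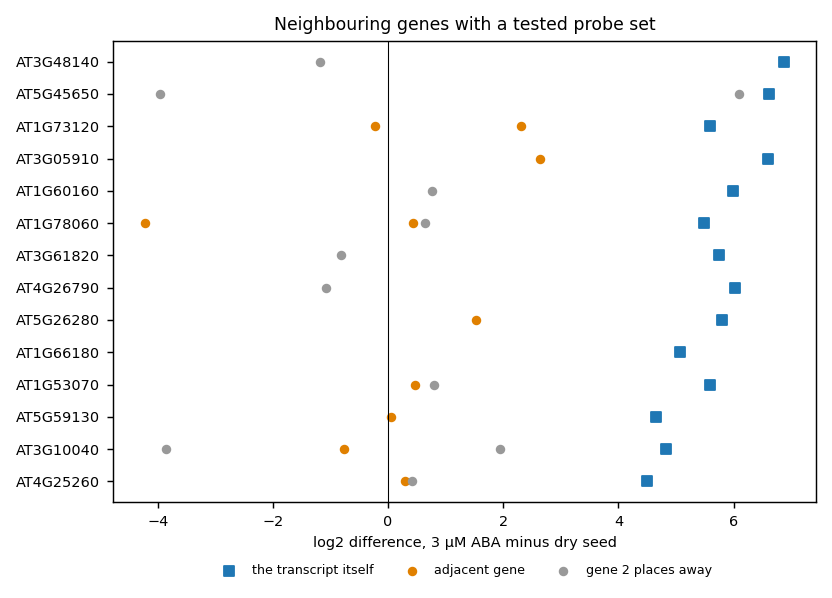
Log2 difference of 3 µM ABA minus dry seed for each of the 14 transcripts (squares) and for neighbouring genes with a tested probe set, adjacent (orange) or 2 places away (grey). Neighbours spread to both sides of 0, and 1 of them, 2 places from AT5G45650, lies with the 14. That neighbour, AT5G45670, itself met the dry and water thresholds.

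Family members elsewhere in the genome were looked up by symbol, on 2 lists drawn up after the 14 were known. Of 10 subtilase genes with a family symbol or the name S1P, 5 passed the filter on low values, of which 1 was called higher (2 after spike-in scaling or without the filter) and 2 lower in 3 µM ABA than in dry seed by limma. The one that rose was SBT1.3, which averaged 15.2 ± 0.570 in dry seed, 847 ± 3.10 in water, 784 ± 46.2 in 3 µM ABA and 741 ± 50.4 in 30 µM ABA (SD, n = 2 each; limma adjusted p = 9.05e-09 for 3 µM ABA against dry seed). Its dry signal alone kept it from the thresholds applied to the subtilases AT5G45650 and AT5G59130, besides its symbol. SBT3.12 fell to 18.4 ± 0.941 in 3 µM ABA, against 65.6 ± 6.72 in dry seed. S1P, a protease of the secretory pathway, fell to 141 ± 2.72, against 195 ± 25.2 (adjusted p = 0.0466).

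The other list was meant for pectin methylesterases, which remove methyl groups from pectin and are the targets of inhibitors like that of AT4G25260. It took the 5 genes whose symbol begins with PME or ATPME, of which 3 passed the filter and 2 were called higher. PMEAMT came in by its symbol alone and is not a pectin methylesterase. ATPMEPCRB was thus the only pectin methylesterase of the list called higher. ATPMEPCRB had 0.757 and 2.88 in dry seed, 38.0 and 155 in water, 36.6 and 41.9 at 3 µM ABA, and 13.6 and 31.4 at 30 µM (3 µM ABA against dry seed, limma adjusted p = 0.000822). PMEAMT averaged 38.9 ± 4.83 in 3 µM ABA and 19.1 ± 7.25 in dry seed (adjusted p = 0.0095). With 3 and 5 probe sets tested, the shares called higher cannot be set against the 37.9% of all probe sets.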

How the data were processed

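The 8 arrays gave 1 table of deposited signal intensities on a linear scale, 1 value per probe set and array, which the authors made with MAS5 according to the submitters' processing notes (version not given in the sources used here). Each array had been scaled to a common trimmed mean, which hides differences in total messenger RNA. The number of arrays limits the precision. Genes were named from the platform annotation, and all 14 members matched the RefSeq table of TAIR10.1, used for names and gene order only. No sequences were used here.

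Here log2(signal + 3.99), the 20th percentile of all values, was fitted with limma 3.58.1 in R 4.3.3 (4 group means, 8 arrays, intensity trend), for 15922 probe sets above the 30th percentile of mean log2 signal. Two-sided p-values were adjusted over all of these (Benjamini-Hochberg) and called at 0.05. Intervals are 95%. Contrasts among dry seed, water and 30 µM ABA were not tested for the members, as they chose them. The fit was also run on simulated data with independent noise, which does not cover effects shared by a whole array. Alternatives were the pseudocount, filter, scaling, variance trend, replicate letter as a block, and each array left out.

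The members, lists and thresholds were chosen with earlier results of these data known. The naming rule took the highest and lowest members and up to 5 per product class. Because the tables hold no product names, the classes were void, and all 14 are named. The sequence comparisons that had been planned were not run.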

Additional observations from a re-analysis of the deposited data

How the results depend on the processing

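All 14 transcripts were called higher in 3 µM ABA than in dry seed by limma under each of the 17 alternatives run, and 0 were called between 3 µM ABA and water or between 30 µM and 3 µM ABA. Dim dry signals limit how well the first difference is measured. Its median of 5.67 was 4.36 with a pseudocount of 16, 6.65 with a pseudocount of 1, 5.12 with each array set to a common median, 6.46 after scaling to the spike-in controls, and 5.46 to 5.86 with single arrays left out. The common median put the median over all probe sets tested at -0.31, and the spike-in controls put it at 1.26, in place of 0.24. The median difference from water was 0.11 after spike-in scaling and -0.25 to 0.083 with arrays left out, and that between doses was -0.58 and -0.31 to 0.060. No label says whether the replicate letters pair the samples. The correlations of their deviations between groups ran from -0.081 to 0.307, the highest being water with 3 µM ABA, then water with 30 µM ABA at 0.230. These values do not settle the pairing. With the replicate block there were 14, 0 and 0 calls. The 3 medians stayed at 5.67, -0.16 and -0.11, as they must where each group holds both letters.

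The direction against water turned for 10 transcripts after spike-in scaling: AT5G26280 (0.066), AT5G59130 (0.012), AT5G45650 (0.036), AT3G48140 (0.039), AT1G66180 (0.20), AT3G05910 (0.096), AT3G10040 (0.19), AT1G53070 (0.11), AT1G78060 (0.17) and AT1G60160 (0.15). It also turned for AT3G48140 after quantile normalization (0.054) and for AT4G25260 with a common median (-0.013). With single arrays left out it turned for 11: AT5G59130 ran from -0.74 to 0.23, AT5G45650 from -0.59 to 0.13, AT3G61820 from -0.21 to 0.46, AT3G48140 from -0.52 to 0.062, AT4G26790 from -0.96 to 0.077, AT4G25260 from -0.27 to 0.35, AT1G66180 from -0.27 to 0.13, AT3G05910 from -0.37 to 0.026, AT3G10040 from -0.30 to 0.14, AT1G53070 from -0.47 to 0.16 and AT1G78060 from -0.28 to 0.088. The cause was not tested.

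The number of transcripts that meet the rule was 5 with a dry mean of 5 or less, 29 with 20 or less, 7 with a ratio above 0.8, 7 with a common median, 13 or 14 with arrays left out and, chosen after seeing the data, 75 with any probe set that is no control. Of the neighbours, also chosen after seeing the data, 5 were called higher with a common median, 14 after spike-in scaling and 5 to 8 with arrays left out (5 without dry replicate A), against 8. Of the subtilases, 2 were called higher without the filter and 2 after spike-in scaling, against 1.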
